A study of Mus musculus with 2 samples.

Results

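The mRNAs of 5 nuclear proteins with ties to the nucleolus, Ncl, Npm1, Ddx21, Acin1 and Pinx1, were followed in RNA recovered with HuR from mouse muscle cells. The 5 genes were represented by 11 of the 16896 cDNA clones spotted on the array, 4 for Ncl, 2 each for Npm1, Ddx21 and Acin1, and 1 for Pinx1. Clones were found through the Entrez Gene numbers of the deposited table, and the genes were chosen from earlier results of these same data, Ncl and Npm1 as reported HuR targets. Their values are therefore given as a description, with no test. The HuR sample was RNA from a monoclonal anti-HuR immunoprecipitation of an extract of untreated, proliferating C2C12 cells, and the IgG sample was RNA from a control precipitation with IgG. C2C12 is an immortal mouse myoblast line, and both samples came from cells in growth medium with 20% serum at 80% confluency. Each antibody had 1 sample and 3 array runs, one without a number and the others numbered 3 and 4. Whether the runs came from separate precipitations is not stated, so every SD below is a spread between runs and no p-value was computed.

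HuR, encoded by Elavl1, is an RNA-binding protein that attaches to U-rich and AU-rich stretches, mostly in 3' untranslated regions, and can stabilise an mRNA or change its translation. The nucleolus is the nuclear body in which ribosomal RNA is transcribed, trimmed and assembled with proteins, and growing myoblasts make ribosomes at a high rate. Nucleolin (Ncl) binds ribosomal RNA and chromatin, and nucleophosmin (Npm1) is a chaperone of histones and of ribosome assembly. HuR has been reported to bind the mRNAs of both, and that of NPM1 has been studied in muscle cell differentiation. Ddx21 encodes a DEAD-box RNA helicase of the nucleolus that acts in ribosomal RNA production. Acin1 encodes acinus, a nuclear protein linked to splicing complexes and to chromatin condensation in apoptosis. Pinx1 encodes a nucleolar and telomeric protein that binds and inhibits telomerase.

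The unit throughout is the authors' z score of an array run, centred here on the median of the run in each of the 2 sections of the table. A difference is the HuR score minus the IgG score of the run with the same number, and a clone's difference is the mean over the 3 run pairs. A z score says how bright a clone was among the clones of the same run, so a difference of 0 means the same place on that scale and not an equal amount of RNA. As points of scale, the gene difference was 2.21 ± 0.39 for Actb, 1.51 ± 0.43 for Hmgb1 and 0.82 ± 0.12 for Elavl1 (SD over 3 run pairs). Across all clones, the differences of 1 run pair correlated with those of another at 0.034 to 0.306, over 16896 clones that share arrays.

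Neither reported target stood higher with HuR than with IgG. All 6 clones of Ncl and Npm1 had a mean difference below 0, from -0.27 to -0.01, and the HuR and IgG runs overlapped on each of the 6. Over the whole array, 55.4% of the brighter 50% of clones by mean score and 55.2% of the dimmer 50% had a difference below 0. The HuR and IgG runs lay apart for 7.05% of the brighter and 5.84% of the dimmer clones. Of the 11 clones of the 5 genes, 0 were at least 1 unit higher and 0 at least 1 unit lower with HuR. In the brighter 50%, 8452 clones with 8 of the 11 among them, these shares were 1.56% and 0.0947%. With shares this small, 0 of 11 does not set these clones apart. Shares at this limit were not computed for the dimmer 50%. The highest clone belonged to Ddx21, at 0.70 ± 0.34, and it was the only one of the 11 at or above 0.6, which 3.68% of the brighter 50% reached.

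**Figure D1:**
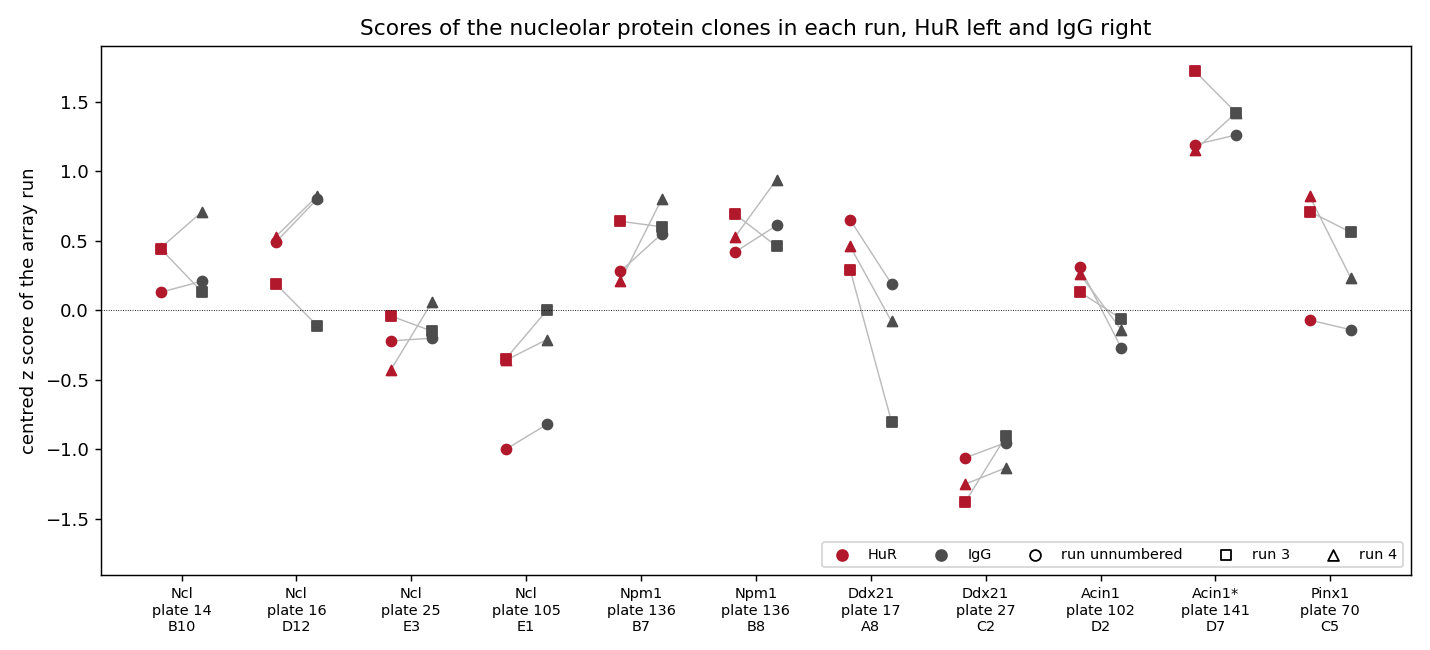
Centred z scores (vertical axis) of the 11 clones of Ncl, Npm1, Ddx21, Acin1 and Pinx1, with HuR runs in red on the left and IgG runs in grey on the right of each clone, and lines joining runs of the same number. The asterisk marks the clone with 2 different Entrez Gene numbers. The HuR and IgG points overlap for every clone of Ncl and Npm1 and lie apart for the Ddx21 clone of plate 17 and the Acin1 clone of plate 102.

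Ncl (Entrez Gene 17975, chromosome 1 in the table) had 4 clones on 4 source plates. The brightest, on plate 16, scored 0.49, 0.19 and 0.53 with HuR in the unnumbered run, run 3 and run 4, against 0.80, -0.11 and 0.82 with IgG. HuR was thus lower in the unnumbered run and run 4 and higher in run 3, and the mean difference was -0.10 ± 0.35. The clone on plate 14 scored 0.13, 0.44 and 0.45 with HuR and 0.21, 0.13 and 0.71 with IgG, a difference of -0.01 ± 0.29. It followed the same order over the runs, with HuR above IgG in run 3 alone.

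The other Ncl clones lay in the dimmer 50% of the array. On plate 25 the scores were -0.22, -0.04 and -0.43 with HuR and -0.20, -0.15 and 0.06 with IgG, a difference of -0.13 ± 0.32. On plate 105 they were -1.0, -0.35 and -0.36 with HuR and -0.82, 0.00 and -0.21 with IgG, a difference of -0.23 ± 0.11. This last clone was the only one of Ncl or Npm1 with HuR below IgG in every run pair, as 13.6% of the dimmer 50% were, though its runs still overlapped because the unnumbered run was the dimmest with both antibodies. Its clone description in the table names another mouse mRNA clone and not nucleolin, while its Entrez numbers are those of Ncl. The median over the clones in the brighter 50% was -0.055 ± 0.31 for Ncl, and the median over the 4238 genes measured there was -0.04. With the median of the adjoining wells subtracted, the value for Ncl was 0.148, on the other side of 0.

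Npm1 (Entrez Gene 18148, chromosome 11) had 2 clones in adjoining wells of plate 136. The clone in well B7 scored 0.28, 0.64 and 0.21 with HuR and 0.55, 0.60 and 0.80 with IgG. Its difference was -0.27 ± 0.32, with most of the gap in run 4. The clone in well B8 scored 0.42, 0.69 and 0.53 with HuR and 0.61, 0.46 and 0.94 with IgG, a difference of -0.12 ± 0.33. Both thus had HuR below IgG in the unnumbered run and run 4 and above it in run 3. The gene difference was -0.20 ± 0.32, and 21.4% of the measured genes lay lower.

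The 6 clones of Ncl and Npm1 had the same sign in 2 of the 3 run pairs, and 5 of them had the opposite sign in the other. All 6 were below 0 in the unnumbered pair, with a median of -0.185, and all 6 were below 0 in pair 4, with a median of -0.35. In pair 3, 5 of the 6 were above 0, with a median of 0.17. Of all clones, 56% were below 0 in the unnumbered pair, 49.4% were below 0 in pair 4 and 49.6% were above 0 in pair 3. Clones of like brightness, within 0.2 units in mean score in the same section of the table, had a median between -0.08 and 0.08 in each run pair for each of the 6. For the Ncl clones of plates 14, 16 and 25 these medians, like the clones, were above 0 in pair 3 alone. For both Npm1 clones the medians were below 0 in every pair, and for the Ncl clone of plate 105 above 0 in pair 4 alone. Among clones of like brightness, the Npm1 clone in well B7 lay at percentile 28.3 for the pair without a number, 60.1 for pair 3 and 0.891 for pair 4. The plate 16 clone of Ncl lay at percentiles 33.9, 78.9 and 28.0. The gene means of Ncl and Npm1 thus combine run pairs of opposite sign, and without pair 3 they were -0.235 and -0.365. Without pair 4 they were 0.055 and -0.0475, and without the unnumbered pair 0.015 and -0.1825.

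**Figure D2:**
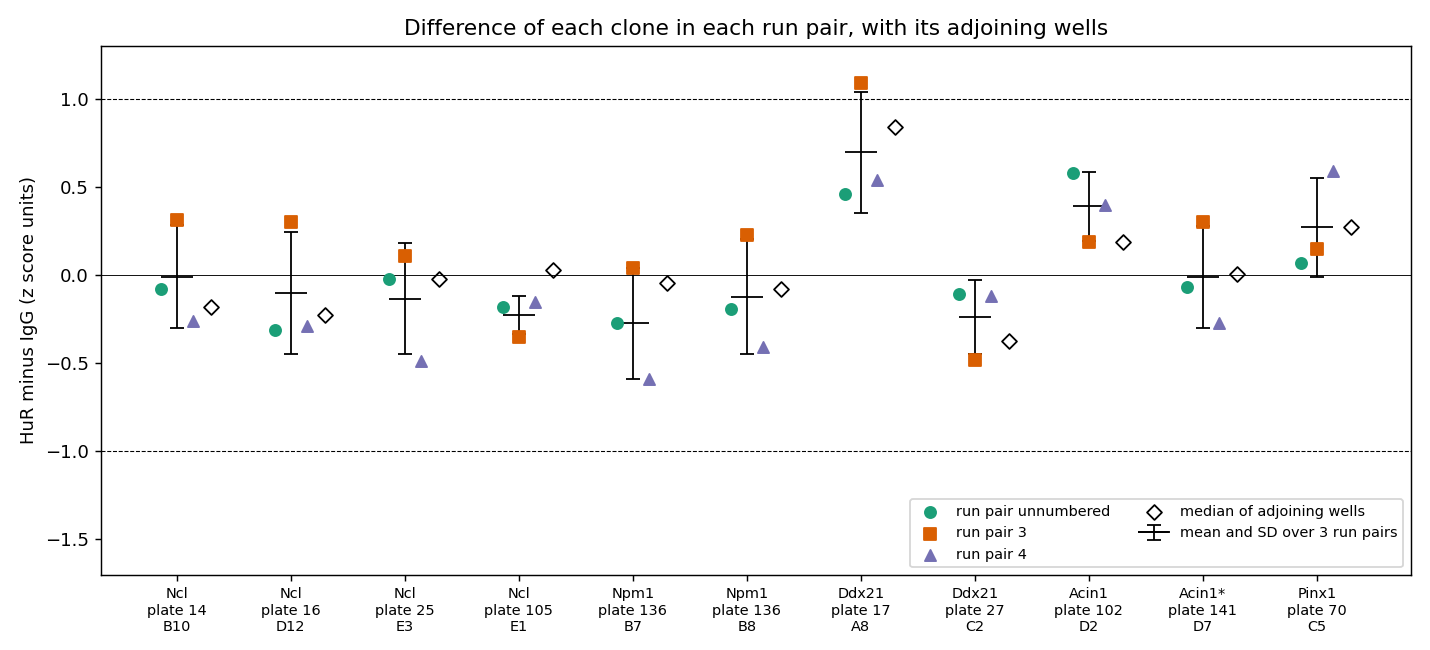
HuR minus IgG differences in z score units (vertical axis) for each clone, as coloured points for the run pairs, a black bar with SD over the 3 run pairs for the mean, and an open diamond for the median of the adjoining wells on the source plate. Dashed lines mark 1 unit. Run pair 3 is the highest point of 5 of the 6 clones of Ncl and Npm1, and the diamond of the Ddx21 clone on plate 17, at 0.84, lies above that clone's mean of 0.70.

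Ddx21 (Entrez Gene 56200, chromosome 10) gave opposite signs on its 2 clones. The clone in well A8 of plate 17 scored 0.65, 0.29 and 0.46 with HuR and 0.19, -0.80 and -0.08 with IgG. Every HuR run was above every IgG run, and the differences were 0.46 without a run number, 1.09 for pair 3 and 0.54 for pair 4, a mean of 0.70 ± 0.34. The clone in well C2 of plate 27 was dim, with 7.60% of all clones dimmer. It scored -1.06, -1.38 and -1.25 with HuR against -0.95, -0.90 and -1.13 with IgG. Its difference was -0.24 ± 0.21, with HuR below IgG in each pair and the ranges overlapping. Over both clones the gene stood at 0.23 ± 0.07, a midpoint of clones of opposite sign. That SD is the spread of the midpoint between run pairs and leaves out the gap between the clones.

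The median of the wells around each Ddx21 clone had the same sign as the clone. Around well A8 of plate 17 the adjoining wells had a median difference of 0.84, with Ecd (well B9) at 1.22, Stil (A9) at 0.92, unnamed clones at 0.84 (B8) and 0.53 (B7), and Akap9 (A7) at 0.06. Ecd encodes a protein of pre-mRNA splicing and cell cycle progress, Stil a protein of centriole duplication and Akap9 a scaffold of the centrosome and Golgi. On the whole plate 76 of 96 wells were above 0, and the plate's median of 0.27 was the third highest of 176 plates. Around well C2 of plate 27 the adjoining wells had a median of -0.38, with 7 of 8 below 0, the lowest Clk1 (D1) at -0.43, and AA408880 (D2) at 0.54. With the median of the adjoining wells subtracted, the plate 17 clone stood at -0.14 and the plate 27 clone at 0.14. Such raised surroundings, with a median of at least 0.5, were found for 305 clones, or 1.81% of the array, and for 1 of the 11 clones here. What part the position of the well had in the Ddx21 difference was not tested.

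**Figure D3:**
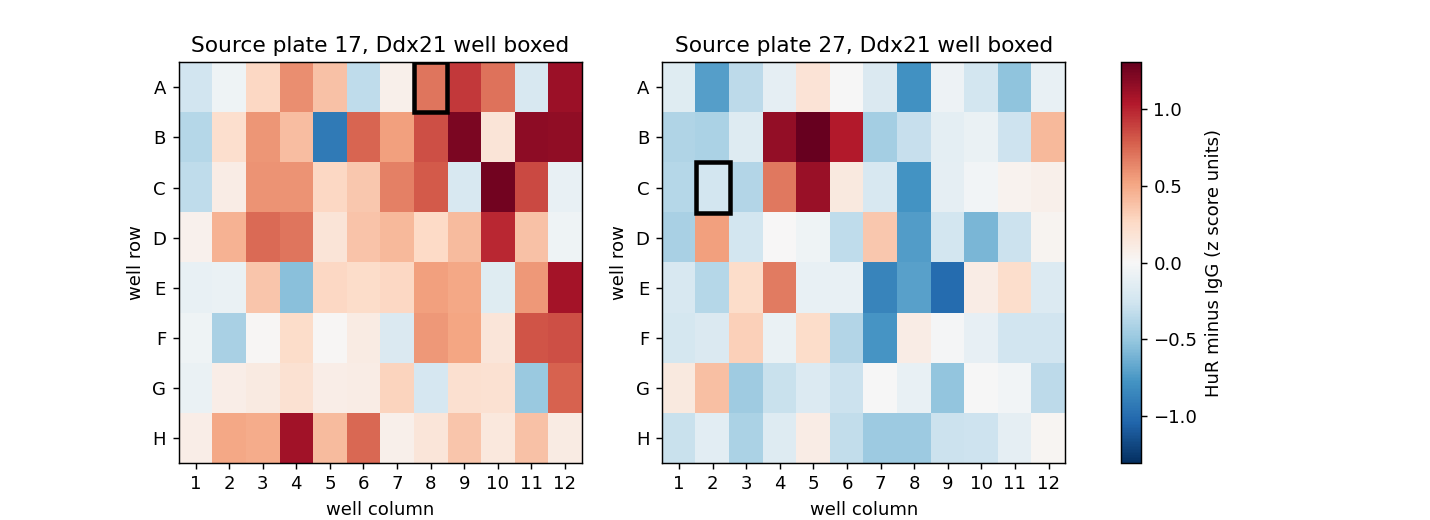
HuR minus IgG difference (colour, z score units) of every well of source plates 17 and 27 by row and column, with the Ddx21 well boxed. On plate 17 most wells are red and the boxed well A8 at 0.70 lies beside wells at 0.92 and 1.22, while on plate 27 the boxed well C2 at -0.24 has 7 of its 8 adjoining wells below 0 and 1 at 0.54.

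Acin1 (Entrez Gene 56215, chromosome 14) had 1 clone with matching Entrez numbers, in well D2 of plate 102. It scored 0.31, 0.13 and 0.26 with HuR and -0.27, -0.06 and -0.14 with IgG. The HuR and IgG runs did not overlap, and the difference was 0.39 ± 0.20. Of the 4238 measured genes, 92.9% lay lower, and among clones of like brightness the clone was at percentile 96.5. Its adjoining wells had a median of 0.185, which left 0.205 when subtracted, with C87499 at 0.59 and an unnamed clone at 0.45 beside it.

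A further clone, in well D7 of plate 141, carries the Entrez number of Acin1 in one column and that of 1700123O20Rik (58248) in the other, and its description carries the number of 1700123O20Rik. It was the brightest of the 11 and scored 1.19, 1.72 and 1.15 with HuR and 1.26, 1.42 and 1.42 with IgG. Its difference was -0.01 ± 0.29, and its runs overlapped. Counted as an Acin1 clone it brings the gene to 0.19.

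Pinx1 (Entrez Gene 72400, chromosome 14) had 1 clone, in well C5 of plate 70, described in the table by a human cDNA clone. It scored -0.07, 0.71 and 0.82 with HuR and -0.14, 0.56 and 0.23 with IgG. The scores overlapped, since the unnumbered run was low with both antibodies, but HuR was above IgG in each run pair. The difference was 0.27 ± 0.28, with 0.59 in pair 4, 0.15 in pair 3 and 0.07 in the unnumbered pair. Its adjoining wells had a median of 0.275, so that -0.005 was left when it was subtracted.

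Of the 8 clones in the brighter 50%, 3 were higher with HuR in every run pair, namely Ddx21 on plate 17, Acin1 on plate 102 and Pinx1, and 0 were lower in every run pair. The Acin1 clone of plate 141 was higher in 1 of 3. Among all clones of that 50%, 10.2% were higher and 10.4% lower in every pair. In the authors' deposited table the two-tailed p-value was under 0.05 for 2 of the 11 clones, against 7.48% of all clones. These were the Acin1 clone of plate 102, with a z ratio of 1.29 in the authors' deposited table, and the Ddx21 clone of plate 17, with 2.32. The Ddx21 clone of plate 27 lay at that limit in the other direction, with a deposited two-tailed p-value of 0.05. Its deposited difference over its standard error was -1.98 and its z ratio was -0.79. The deposited p-values of the 11 clones have at most 2 decimals. A value deposited as 0.05 was not counted as under 0.05, so the counts depend on that rounding. For the 6 clones of Ncl and Npm1 the authors' deposited table gave z ratios from -0.92 to -0.03. Beside each p-value the authors deposited the difference over its standard error, from 1 sample and 3 runs per antibody. How that standard error was computed is not stated.

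Genes related to the 5 were described through 9 lists of 258 genes in all, without the 5 genes above. Besides ribosome assembly factors, the lists hold other helicases, splicing and telomere proteins, and partners of nucleophosmin such as Trp53. Values pooled over the lists are therefore not a result on the nucleolus alone. Of the 258 genes, 153 were on the array and 97 had a clone in the brighter 50%. Their median difference was -0.07, against -0.04 over all 4238 genes, and 37 were above 0 and 60 below, where 42% of all measured genes were above 0. In every run pair 9 of the 97 were higher and 8 lower, against 11.2% and 11.1% of all measured genes. At least 1 unit higher were 0 of the 97, and at least 1 unit lower were 0. At the looser limit of 0.6 there were 0 higher and 1 lower, against 3.35% and 1.2% of all genes measured. Of 56 listed genes with clones in the dimmer 50% only, 2 were at least 0.6 higher and 1 at least 0.6 lower, against 2.05% and 1.44% of the 3553 such genes on the array. By run pair the 97 had medians of -0.25 without a run number, 0.06 for pair 3 and -0.06 for pair 4, against -0.13, 0.04 and -0.05 over all genes.

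Proteins of the small nucleolar ribonucleoproteins, which guide chemical changes in ribosomal RNA, had a median of -0.0017 over 8 genes. Nop58, a core protein of the box C/D particles, was highest at 0.52 ± 0.28 and above 0 in every run pair, at 0.76, 0.60 and 0.21. Nufip1, an assembly factor of these particles, stood at 0.21 ± 0.53 and Ruvbl2, an ATPase of the same assembly path, at 0.08 ± 0.22. Fbl, the methyltransferase fibrillarin, stood at -0.07 ± 0.07 on 2 clones. Nolc1, a snoRNP chaperone, was at -0.22 ± 0.30 over 3 clones that ran from -0.36 to 0.12, and the ATPase Ruvbl1 was at -0.23 ± 0.28. The members thus lay on both sides of 0, and all but Nop58 and Fbl of those named were within 1 SD of it.

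Factors that make the small ribosomal subunit had a median of -0.10 over 20 genes, 6 above 0 and 14 below. The highest were Nol11 at 0.52 ± 0.42, Nol6 at 0.27 ± 0.31 and Aatf at 0.22 ± 0.42. The lowest were Imp4 at -0.36 ± 0.56, Rrp7a at -0.33 ± 0.47 and Utp15 at -0.24 ± 0.33. Nol11, Nol6, Imp4 and Utp15 belong to the small subunit processome, which assembles on the ribosomal RNA precursor. The wells adjoining Nol11 had a median of 0.48, just under the limit for raised surroundings.

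Factors of the large subunit had a median of -0.02 over 31 genes, 14 above 0 and 17 below. Mrto4, which acts in the assembly of the ribosomal stalk, was lowest at -0.45 ± 0.03, and its run pairs were almost equal at -0.42, -0.45 and -0.47. The wells adjoining it had a median of -0.31. Brix1 stood at -0.34 ± 0.31 and Pes1, a subunit of the PeBoW complex, at -0.32 ± 0.34. At the upper end were Las1l, part of an endonuclease that cuts the spacer between ribosomal RNAs, and Nop16, both at 0.27, with SDs of 0.19 and 0.08, and Gtpbp4 at 0.21 ± 0.17. The clones of Las1l differed, at -0.13 and 0.67. The wells adjoining Nop16 had a median of 0.26 and those adjoining Gtpbp4 a median of 0.29. Around the 2 clones of Las1l the higher median was 0.345.

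RNA polymerase I and its factors, which transcribe the ribosomal RNA genes, had a median of -0.085 over 12 genes. Polr2e, a subunit shared by the nuclear RNA polymerases, was the 1 listed gene past -0.6, at -0.77 ± 1.22. Its run pairs were at -2.10, 0.31 and -0.52, so that its mean rested on the unnumbered pair. Ttf1, the transcription termination factor, stood at -0.28 ± 0.29 and Polr2h at -0.16 ± 0.28. Taf1a, of the promoter selectivity factor, stood at 0.36 ± 0.46. Its adjoining wells had a median of 0.498, just under the limit for raised surroundings. Polr1e stood at 0.23 ± 0.42 and Twistnb, another polymerase I subunit, at 0.165 ± 0.24.

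The exosome and other nucleases that trim ribosomal RNA had the lowest median of the 9 lists, -0.19 over 8 genes, with 7 below 0 and 3 of them below 0 in every run pair. Over all measured genes the median was -0.04, 42% were above 0 and 11.1% were below 0 in every run pair. Exosc1 stood at -0.43 ± 0.24, Exosc3 at -0.26 ± 0.24, and Exosc5 and Exosc10 at -0.24 each, with SDs of 0.31 and 0.54. Exosc7 and the exonuclease Xrn2 were at -0.0067 each, with SDs of 0.29 and 0.31, and the helicase Mtrex was at 0.02 ± 0.06. With the adjoining wells subtracted the median of the list was 0.01.

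Partners of nucleophosmin had a median of -0.135 over 5 genes, 4 of them below 0, with the nuclear exporter Xpo1 at -0.43 ± 0.71, the ribosomal proteins Rpl5 at -0.27 ± 0.35 and Rps14 at -0.135 ± 0.32, Trp53 at -0.08 ± 0.28 and its ubiquitin ligase Mdm2 at 0.05 ± 0.08. Rpl5 was above 0 in pair 3 alone, with -0.54 without a run number, 0.11 for pair 3 and -0.43 for pair 4. Rps14 had the same signs, at -0.415, 0.215 and -0.205. So did the medians over all measured genes, at -0.13, 0.04 and -0.05, so these signs are not particular to partners of nucleophosmin. Npm3, another nucleoplasmin, had a single clone in the dimmer 50%.

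Helicases related to Ddx21 had a median of -0.085 over 8 genes. Eif4a1, the translation initiation helicase, was highest at 0.33 ± 0.18 on 5 clones, followed by Dhx36 at 0.21 ± 0.37 and Dhx30 at 0.04 ± 0.24. Ddx39b stood at -0.15 ± 0.25, Ddx41 at -0.13 ± 0.37 and Ddx5 at -0.12 ± 0.52. The 4 clones of Ddx5 ran from -0.44 to 0.13. Partners of Acin1 in the ASAP and exon junction complexes had a median of 0.0083 over 4 genes, with the splicing protein Srrm1 at 0.36 ± 0.57, Magoh at 0.01 ± 0.20, Casc3 at 0.0067 ± 0.33, and Rnps1 at -0.06 ± 0.30. Telomere partners of Pinx1 had a median of -0.11 over 4 genes. Terf1, the telomere repeat factor that binds Pinx1, stood at 0.43 ± 0.13 and above 0 in every run pair, while Gar1 was at -0.04 ± 0.43, Tep1 at -0.18 ± 0.22 and Tinf2 at -0.29 ± 0.28. The wells adjoining Terf1 had a median of 0.09.

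**Figure D4:**
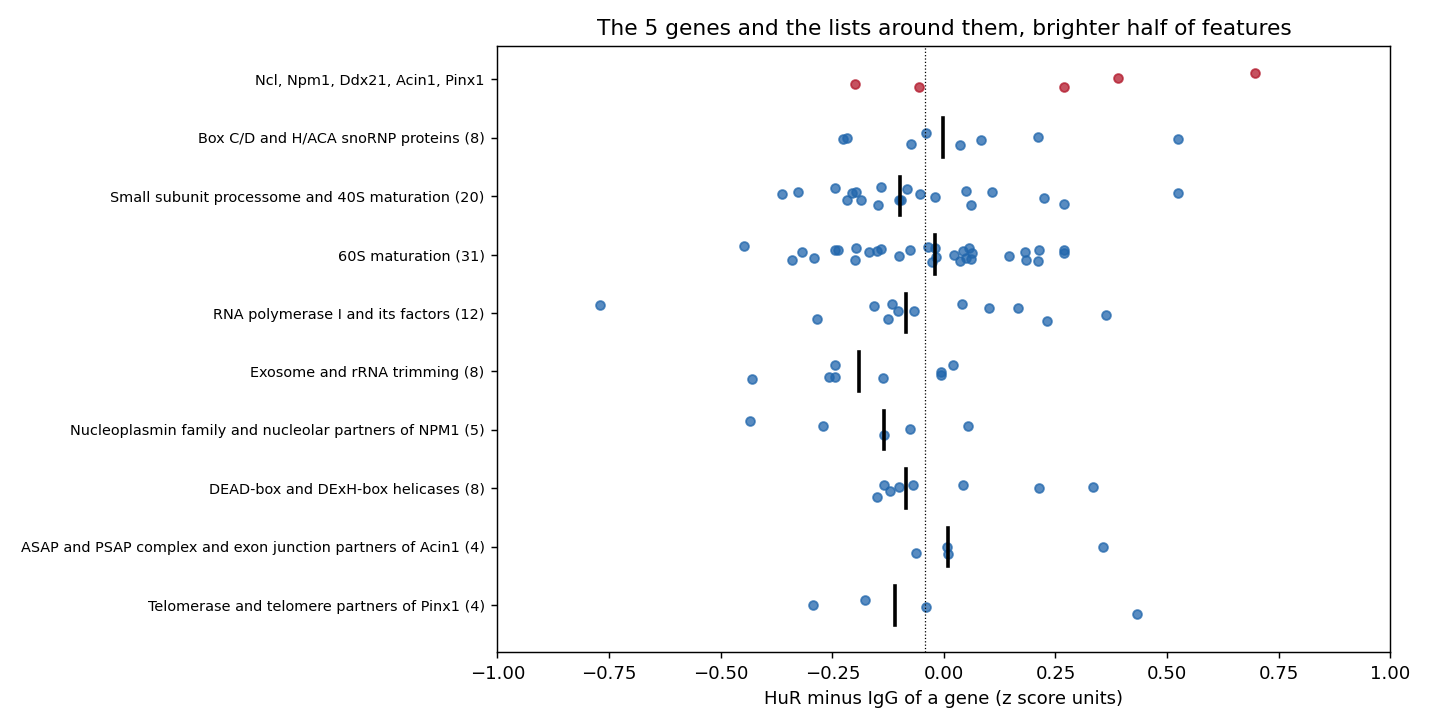
HuR minus IgG difference (horizontal axis, z score units) of the 5 genes in red and of the genes of the 9 lists in blue, with a black bar at each list's median, the number of genes in parentheses and a dotted line at the median of all measured genes, -0.04. All listed genes lie between -0.77 and 0.52, and the list medians lie between -0.19 and 0.01.

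The cell type could be checked on few markers. Of 10 myoblast markers 2 had a clone, and only Vim, an intermediate filament gene of mesenchymal cells, was in the brighter 50%, so the array does not show the myogenic identity of the cells. All 7 liver and epithelial markers were on the array and 6 of them lay in the brighter 50%. Of 3 blood markers 1 was on the array and lay in the brighter 50%, and of 3 neural markers 1 was on the array and lay in the dimmer 50%. With 6 of 7 liver and epithelial markers there, a place in the brighter 50% was not read as expression. The 6 liver and epithelial genes had a median difference of -0.145 with 0 above 0, against -0.04 and 42% above 0 over all measured genes.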

How the data were processed

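RNA from 1 HuR and 1 IgG immunoprecipitation was reverse transcribed with a radiolabelled nucleotide, per the labels' protocols, and measured on an array whose deposited table lists 16896 clones. Per the file headers the authors deposited a z score for every clone and run. In each section of 8448 clones these scores averaged 0 with unit SD. How spots were scanned and corrected for background, and the base of any log, is not stated by labels or headers. The authors' own p-value and z ratio, deposited per the file headers, were taken as unadjusted. The mean scores in both files were identical.

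Scores were centred on the median of each run and section, and runs of the same number were paired. Clones took the current RefSeq symbol (GRCm38.p6) of their Entrez numbers, or else the table's symbol (7527 and 2676 clones). A further 520 clones with conflicting entries and 6173 without a name stayed unnamed. Genes were summarised by the median over clones in the brighter 50% of the array by mean score. Members, lists and thresholds were chosen with earlier results of these data known. Besides the 5 genes and the points of scale, of each list the 3 highest and the 3 lowest genes are named, with any tied. A check on simulated runs with independent noise asked only whether known differences were returned, and held no effect of plate or well. Python 3.11.15, pandas 2.3.3 and numpy 2.4.6 were used. Alternatives covered centring, quantile normalization, signal, clone choice, run pairs and position, of which the subgrid, the source plate and the doubtful Acin1 clone were added after seeing the data. Precision is limited by the number of arrays, and no sequence of a clone or transcript was used here.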

Additional observations from a re-analysis of the deposited data

How the results depend on the processing

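With 1 run pair left out, the difference ran from -0.235 to 0.055 for Ncl, -0.365 to -0.0475 for Npm1, 0.50 to 0.815 for Ddx21, 0.295 to 0.49 for Acin1 and 0.11 to 0.37 for Pinx1. Npm1 stayed below 0 in 12 of 12 alternatives and Acin1 above 0 in 13 of 13, while Ncl kept its sign in 8 of 12. Some of these alternatives could not change a value and are no check of its sign. Taking all signal levels added no clone and left Npm1 at -0.198 and Acin1 at 0.39. Taking the brightest clone left Acin1 at 0.39, because its value rested on 1 clone. Scores as deposited, without centring, moved values little, to -0.202 for Npm1 and 0.387 for Acin1. Ddx21 was at 0.23 over all signal levels and at -0.14 with the adjoining wells subtracted. Acin1 was at 0.188 with the doubtful clone. In the brightest 25% of clones none of the 5 genes had a value, and the median was 0.10 for RNA polymerase I, 0.0458 for helicases and 0.182 for partners of Acin1. With the adjoining wells subtracted it was -0.0125 for the small subunit list and 0.01 for the exosome, and with the plate median subtracted -0.0433 for the exosome and 0.0358 for helicases. Of the listed genes, 1 was at least 1 unit higher over all signal levels (Ddx51, a dim clone at 1.20 ± 0.76), 1 was lower at a limit of 0.6, and 0 to 1 were lower with 1 run pair left out, Polr2e without pair 3. The cause of these changes was not tested. For a gene with 1 clone, leaving out a run pair cannot move the mean beyond the SD between pairs. No pairing of separate samples was possible because there is only 1 sample for HuR and 1 for IgG. Runs were paired by their number, and whether runs of the same number were made together is not stated. How far signals stood above background is not known.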

Other observations

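Of 56 listed genes with clones in the dimmer 50% only, which the list medians leave out, 2 were at least 0.6 higher and 1 at least 0.6 lower, against 2.05% and 1.44% of the 3553 such genes on the array. Ddx51, a helicase of large subunit assembly, was at 1.54 without a run number, 0.33 for pair 3 and 1.74 for pair 4, with a median of -0.13 in its adjoining wells. Nip7, a 60S assembly factor, was at 0.63 ± 0.14 with a median of 0.56 in its adjoining wells. Npm3, a nucleoplasmin like Npm1, was at -0.79 ± 0.43. These genes were named after their values were seen.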
